A study of Mus musculus with 8 samples.

Results

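Brain endothelial and barrier genes were followed in the hypothalamus of young mice given PLX3397 or vehicle. The set holds 10 genes of 55401 in the deposited table: Cldn5, Ocln, Pecam1, Flt1, Kdr, Tek, Slc2a1, Mfsd2a, Slco1c1 and Abcb1a. They were chosen by gene symbol for endothelial identity, cell junctions and barrier transport, with earlier results of these data known. All 10 were among the 16894 genes with a mean level of 0.5 FPKM or more (fragments per kilobase, scaled to library size), which were tested.

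The series asks what microglia, the resident macrophages of the brain, contribute to the hypothalamus after birth. PLX3397, an inhibitor of the microglial survival receptor CSF1R, was given to 4 pups by gavage from postnatal day 9 to day 15, and 4 other pups received vehicle on the same days. Tissue was taken on day 19, 4 days after gavage ended, and its RNA was sequenced after removal of ribosomal RNA. Each group held 2 females and 2 males, written F1, F2, M1 and M2 below. Both groups were housed at the same temperature on standard chow. The sources used here give no strain, genotype or vehicle make-up, and they name no transgene. The sample labels give the tissue as brain and the design text gives it as hypothalami. The design text speaks of 8 hypothalami, so each library was taken as a separate animal, and p-values measure the spread between these libraries.

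Endothelial cells line the vessels of the brain, where tight junctions close the gaps between them and selective carriers move nutrients and lipids across them. VEGF and the angiopoietins act on these cells through receptor tyrosine kinases that guide vessel growth and keep vessels stable. Pericytes, astrocytes and microglia lie against the vessel wall, and parts of the hypothalamus have fenestrated vessels in place of a tight barrier.

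Total counts ran from 55900335 to 67487391 in PLX3397 libraries and from 54115300 to 60001808 in vehicle libraries. The members had between 433 counts (Ocln in vehicle F2) and 8699 counts (Slc2a1 in PLX3397 F1) in a library, so that counting alone gave a relative error of at most 4.81%. Csf1r, transcribed by microglia, served as the check of the treatment and averaged 4.69 ± 2.38 CPM (counts per gene scaled to library size) in PLX3397 libraries and 81.02 ± 3.81 CPM in vehicle libraries (SD, n = 4 each). It fell by 4.18 on the log2 scale (SE 0.43; adjusted p = 0.00526, edgeR's quasi-likelihood test with Benjamini-Hochberg adjustment over all tested genes, as for every adjusted p below). The summed level of 16 microglial genes was 25.0 to 57.2 CPM in PLX3397 libraries and 372 to 385 CPM in vehicle libraries, and none of these genes was at 0 throughout a group. Of the libraries, vehicle F1 held 3119 CPM of 7 pituitary genes against 5.19 to 16.5 CPM in the other 7 libraries, and PLX3397 M2 had the lowest microglial sum and the highest sum of 10 meningeal fibroblast genes, 589 CPM. The other PLX3397 libraries held 413 to 475 CPM of these fibroblast genes, against 304 to 427 CPM in vehicle libraries. By edgeR 2 of the 10 were higher after PLX3397 at an adjusted p under 0.05, beside 0.308% of all tested genes. For genes named below as called by edgeR over both sexes, values are also given without vehicle F1 and PLX3397 M2 where the call rests on them. Within a sex, leaving them out leaves a single library in a group, and the calls within males were not set out that way.

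Per unit length the members spanned more than an order of magnitude. Slc2a1, which encodes the glucose carrier GLUT1 of the vessel wall and of astrocytes, had the highest level, 29.4 ± 2.29 FPKM in PLX3397 libraries and 25.4 ± 1.67 FPKM in vehicle libraries (SD, n = 4 each, as for all values given with ±). Mfsd2a, a carrier of lysophosphatidylcholine-bound omega-3 fatty acids that also restrains vesicle traffic across the endothelium, had 12.3 ± 1.96 FPKM in PLX3397 libraries and 19.3 ± 3.94 FPKM in vehicle libraries. Cldn5, the main claudin of the tight junction, had 13.4 ± 1.10 FPKM in PLX3397 libraries and 16.6 ± 3.93 FPKM in vehicle libraries. Mfsd2a and Cldn5 overlapped over the 8 libraries, with ranges of 10.2 to 24.9 FPKM and 11.8 to 21.1 FPKM. The next tier held Slco1c1, a thyroxine carrier also found in astrocytes, and Abcb1a, the efflux pump P-glycoprotein, with means over all libraries of 5.67 and 4.78 FPKM and ranges that overlapped. The lowest tier held Flt1 at 3.08, Kdr at 2.82, Tek at 2.57, Pecam1 at 2.49 and Ocln at 1.90 FPKM over all libraries. Each of these 5 overlapped its neighbours in that order over the 8 libraries.

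Between the treatments the members did not point one way. Flt1 rose after PLX3397 and was the 1 member of 10 called at an adjusted p under 0.05, beside 2.14% of all tested genes called (0.308% called higher and 1.83% called lower). By DESeq2 2 members were called, Flt1 and Mfsd2a, beside 6.51% of tested genes. Mfsd2a had the largest difference of any member, 1.57-fold lower after PLX3397, and did not pass the threshold with edgeR. Across the 10 members 5 log2 fold changes were positive and 5 negative, and the median was -0.10, beside -0.00 over all tested genes. An unadjusted p under 0.05 was reached by 4 members (Flt1, Mfsd2a, Slc2a1 and Kdr), beside 16.2% of all tested genes. In whole tissue, fewer vessel cells and less RNA per vessel cell cannot be told apart.

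**Figure D1:**
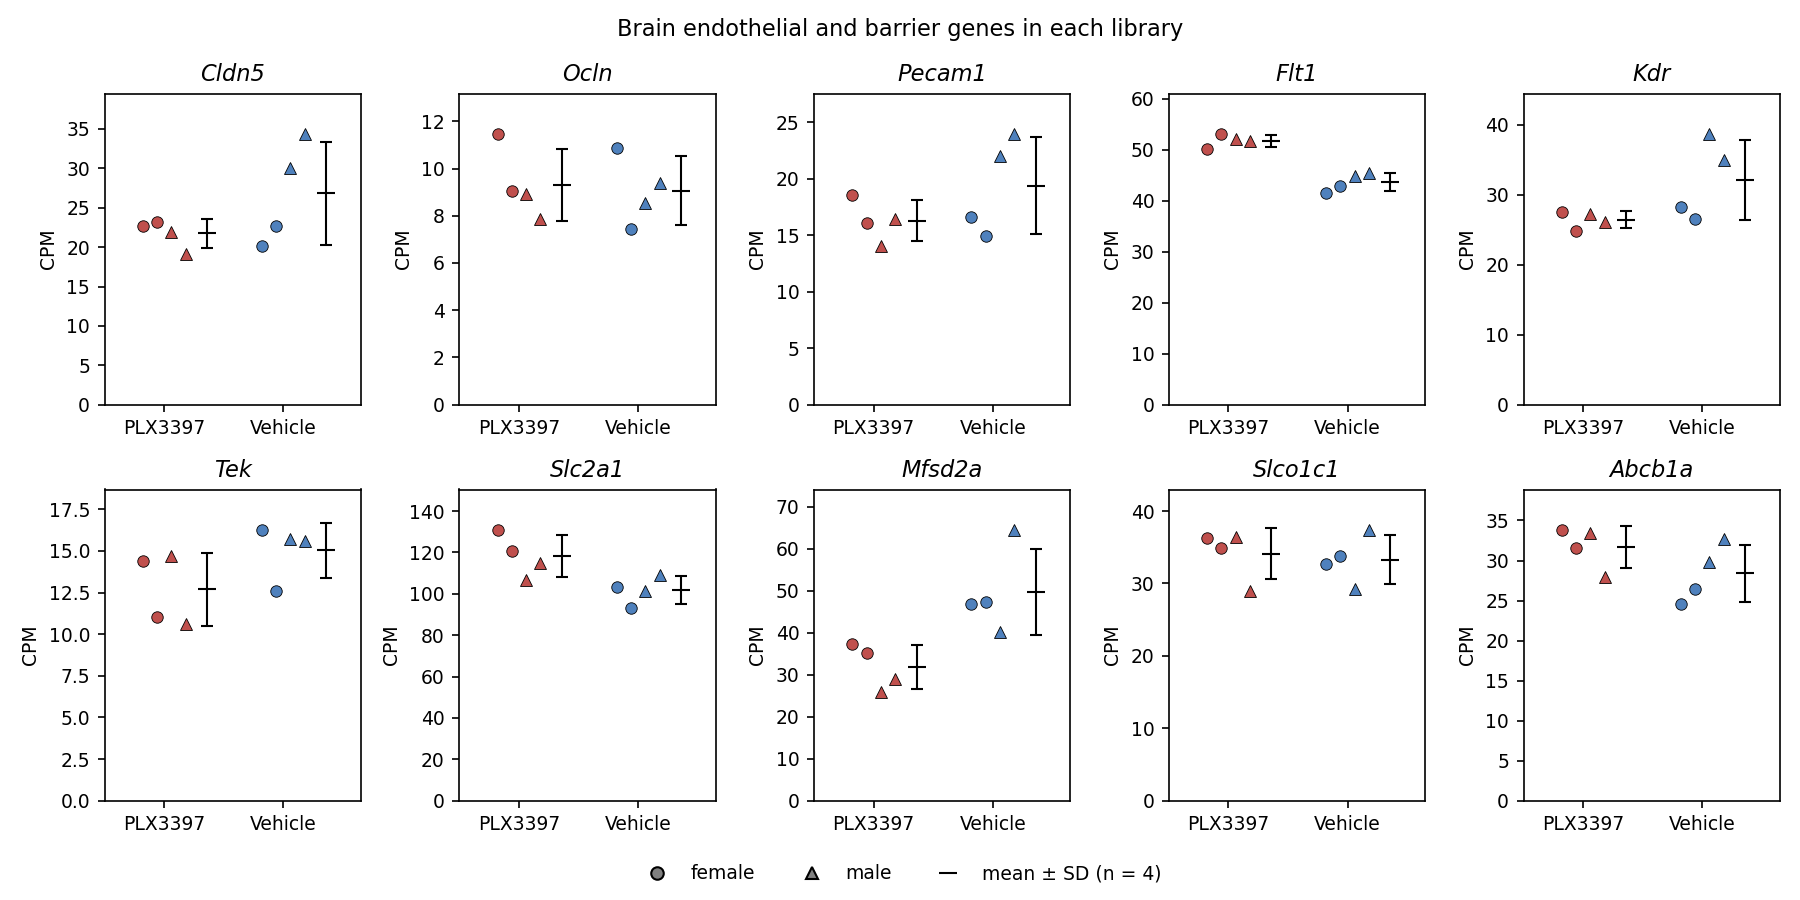
Level of each of the 10 members in CPM (y axis, from 0) in the 4 PLX3397 and the 4 vehicle libraries, with circles for females, triangles for males and bars for the mean ± SD (n = 4). The groups separate for Flt1, with PLX3397 at 50.1 to 53.1 CPM, and for Mfsd2a, with PLX3397 at 26.0 to 37.4 CPM, and the vehicle males stand high for Cldn5, Pecam1 and Kdr.

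The promoter sequences of 4 members are shown because the pairs they form, 2 receptors of the same ligand and 2 carriers, differed in opposite directions. Each is the run of 250 bases that ends before the gene's RefSeq start, read 5′ to 3′ on the gene's strand, in RefSeq's GRCm38.p6, whose coordinates match the mm10 build of the files. The Flt1 window lies at chr5:147726012-147726261 (minus strand), the Kdr window at chr5:75978456-75978705 (minus strand), the Mfsd2a window at chr4:122961189-122961438 (minus strand) and the Slc2a1 window at chr4:119108495-119108744 (plus strand). Capitals mark matches, on either strand, to 5 short motifs, which are the ETS core CGGAAG, the TCF/LEF core CTTTGA, the hypoxia response core ACGTG, the GC box GGGCGG and the TATA box TATAAA.
Flt1: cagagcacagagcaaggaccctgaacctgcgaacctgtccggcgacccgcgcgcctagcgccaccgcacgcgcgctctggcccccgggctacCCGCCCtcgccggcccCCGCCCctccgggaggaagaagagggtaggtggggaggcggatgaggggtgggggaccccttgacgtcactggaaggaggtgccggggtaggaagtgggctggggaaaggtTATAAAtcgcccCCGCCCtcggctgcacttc
Kdr: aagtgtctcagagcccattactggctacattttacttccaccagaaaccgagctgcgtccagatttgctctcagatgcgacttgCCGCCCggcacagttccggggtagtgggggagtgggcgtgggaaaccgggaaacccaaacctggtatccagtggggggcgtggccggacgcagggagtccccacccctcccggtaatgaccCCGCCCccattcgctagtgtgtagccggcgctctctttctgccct
Mfsd2a: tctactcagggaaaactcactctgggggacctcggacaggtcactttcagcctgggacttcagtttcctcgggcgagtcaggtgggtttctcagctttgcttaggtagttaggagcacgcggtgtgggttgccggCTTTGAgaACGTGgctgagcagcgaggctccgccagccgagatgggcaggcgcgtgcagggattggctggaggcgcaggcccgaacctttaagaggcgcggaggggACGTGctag
Slc2a1: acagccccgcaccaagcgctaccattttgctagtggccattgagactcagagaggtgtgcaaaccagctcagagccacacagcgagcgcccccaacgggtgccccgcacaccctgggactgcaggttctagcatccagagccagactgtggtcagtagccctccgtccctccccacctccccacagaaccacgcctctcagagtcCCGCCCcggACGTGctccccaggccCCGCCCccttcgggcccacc

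The Flt1 window held 3 GC boxes and 1 TATA box, and the Kdr window held 2 GC boxes and no match to the other 4 motifs. The Mfsd2a window held 1 TCF/LEF core and 2 hypoxia response cores and no GC box, while the Slc2a1 window held 1 hypoxia response core and 2 GC boxes. The start the files give for Slc2a1 lies 34 bases before the RefSeq start. Its last GC box and part of its hypoxia response core therefore lie past the files' start. The TCF/LEF core is the DNA motif read by the partners of beta-catenin, through which Wnt signals act, and the hypoxia response core is the motif read by hypoxia-inducible factors. RefSeq gave a promoter for 9 of the 10 members and none for Pecam1. Among these 9, 5 held a GC box, beside 32.9% of 27025 promoters of the same length. The hypoxia response core was in 2 of 9 members and in 16.6% of all promoters, and the TCF/LEF core was in 2 of 9 members, Mfsd2a and Abcb1a, and in 14% of all promoters. No member's window held CGGAAG, which 13.8% of all promoters held. Other forms of the ETS core were not searched for. The TATA box was in the window of 1 member and in 13.0% of all. In the 4 windows shown no match overlapped another. The RefSeq start of Abcb1a lies 92986 bases from the start the files give, so its window is not shown. The counts over 9 members include this window, whose 2 TCF/LEF cores thus lie far from the files' start. The share of G and C was 70.4% in the Flt1 window, 61.6% in the Kdr and in the Mfsd2a window and 66.4% in the Slc2a1 window, beside a median of 52.0% over all promoters.

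Among the junction genes no member passed the threshold. Cldn5 (ENSMUSG00000041378; chromosome 16, 18776847 to 18778262, plus strand, mm10 as for all positions below) measured 22.6, 23.2, 21.9 and 19.1 CPM in PLX3397 F1, F2, M1 and M2, against 20.2, 22.7, 30.0 and 34.4 CPM in vehicle F1, F2, M1 and M2. The groups overlapped, since both vehicle females lay among the PLX3397 values while both vehicle males lay above all of them. Its log2 fold change was -0.28 (SE 0.16; 95% interval -0.64 to 0.09; adjusted p = 0.446). Ocln (ENSMUSG00000021638; chromosome 13, 100496507 to 100552718, minus strand), the tight junction protein occludin, measured 11.5, 9.04, 8.92 and 7.86 CPM in the PLX3397 libraries, against 10.9, 7.44, 8.55 and 9.38 CPM in the vehicle libraries, in the same order. F1 was the highest library of each group, and the groups overlapped. For Ocln the log2 fold change was 0.03 (SE 0.15; 95% interval -0.32 to 0.38; adjusted p = 0.943). Pecam1 (ENSMUSG00000020717; chromosome 11, 106654217 to 106750628, minus strand), the adhesion protein CD31 used to mark endothelium, measured 18.6, 16.1, 14.1 and 16.4 CPM in the PLX3397 libraries, against 16.6, 14.95, 22.0 and 23.9 CPM in the vehicle libraries. As for Cldn5, the vehicle males were the highest libraries and the vehicle females overlapped the PLX3397 animals (log2 fold change -0.23; SE 0.16; adjusted p = 0.531). Without PLX3397 M2 and without vehicle M2, left out 1 at a time, Cldn5 had log2 fold changes of -0.15 and -0.17, and without PLX3397 M1 and without vehicle M2 those of Pecam1 were -0.11 and -0.14.

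The 3 receptor genes differed in direction. Flt1 (ENSMUSG00000029648; chromosome 5, 147561604 to 147726011, minus strand) encodes VEGF receptor 1, which binds VEGFA tightly and, in a soluble form, takes it away from receptor 2. It measured 50.1, 53.1, 52.1 and 51.7 CPM in PLX3397 F1, F2, M1 and M2, against 41.5, 42.9, 44.8 and 45.4 CPM in vehicle F1, F2, M1 and M2. Every PLX3397 library lay above every vehicle library. Flt1 rose 1.19-fold (log2 fold change 0.25; SE 0.05; 95% interval 0.14 to 0.35; adjusted p = 0.0464), and it was the least variable member, with a coefficient of variation of 2.39% in PLX3397 libraries and 4.18% in vehicle libraries. The adjusted p lay between 0.0831 and 0.129 when any one of the 8 libraries was left out, 0.226 without vehicle F1 and PLX3397 M2, and 0.428 when libraries were scaled to the other endothelial identity genes. The counts are per gene, so the membrane and soluble forms of Flt1 were not separated.

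Kdr (ENSMUSG00000062960; chromosome 5, 75932827 to 75978458, minus strand) encodes VEGF receptor 2, through which VEGFA drives endothelial growth. It measured 27.5, 24.8, 27.3 and 26.0 CPM in the PLX3397 libraries, against 28.2, 26.5, 38.6 and 34.9 CPM in the vehicle libraries. The PLX3397 libraries lay close together, and the vehicle males stood above them and above the vehicle females. This gave a log2 fold change of -0.26 (SE 0.10; 95% interval -0.49 to -0.04; adjusted p = 0.238). Tek (ENSMUSG00000006386; chromosome 4, 94739289 to 94874976, plus strand), the angiopoietin receptor TIE2, measured 14.4, 11.03, 14.7 and 10.6 CPM in the PLX3397 libraries, against 16.3, 12.6, 15.7 and 15.6 CPM in the vehicle libraries. PLX3397 F2 and M2 and vehicle F2 were the low libraries, and the groups overlapped (log2 fold change -0.24; SE 0.14; adjusted p = 0.466). The log2 fold change of Tek was -0.14 with PLX3397 M2 left out and -0.03 with vehicle F1 left out as well.

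Slc2a1 and Mfsd2a, the carriers with the highest levels, also pointed in opposite directions. Slc2a1 (ENSMUSG00000028645; chromosome 4, 119108711 to 119137983, plus strand) measured 131, 121, 107 and 115 CPM in PLX3397 F1, F2, M1 and M2, against 103, 93.1, 101 and 109 CPM in vehicle F1, F2, M1 and M2. Vehicle M2 lay just above PLX3397 M1, and apart from that pair the PLX3397 libraries were the higher ones. The log2 fold change was 0.22 (SE 0.07; 95% interval 0.04 to 0.39; adjusted p = 0.213). Mfsd2a (ENSMUSG00000028655; chromosome 4, 122946850 to 122961188, minus strand) measured 37.4, 35.2, 26.0 and 29.1 CPM in the PLX3397 libraries, against 46.9, 47.3, 40.3 and 64.5 CPM in the vehicle libraries. Every PLX3397 library lay below every vehicle library, and vehicle M2 stood far above the rest. The log2 fold change was -0.65 (SE 0.17; 95% interval -1.05 to -0.26; adjusted p = 0.117). Without vehicle M2 the log2 fold change was -0.45 and the adjusted p was 0.0538, and DESeq2 gave an adjusted p of 0.00386 on all 8 libraries. Flt1 and Mfsd2a were the 2 of 10 members whose groups did not overlap, beside 11.2% of all tested genes (PLX3397 above in 4.85% and below in 6.32%).

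Slco1c1 (ENSMUSG00000030235; chromosome 6, 141524368 to 141569796, plus strand) measured 36.2, 34.9, 36.3 and 28.9 CPM in the PLX3397 libraries, against 32.8, 33.8, 29.3 and 37.4 CPM in the vehicle libraries. PLX3397 M2 was the lowest and vehicle M2 the highest of all libraries, with the rest between them (log2 fold change 0.03; SE 0.10; 95% interval -0.20 to 0.27; adjusted p = 0.909). Abcb1a (ENSMUSG00000040584; chromosome 5, 8660077 to 8748575, plus strand) measured 33.8, 31.6, 33.4 and 27.9 CPM in the PLX3397 libraries, against 24.6, 26.5, 29.8 and 32.7 CPM in the vehicle libraries. The 2 vehicle females were the lowest libraries, and the vehicle males lay among the PLX3397 animals (log2 fold change 0.16; SE 0.10; adjusted p = 0.487). Its close copy Abcb1b had 186 to 277 counts per library and a mean of 0.401 FPKM, under the level for testing, and reads shared by the copies cannot be assigned with certainty. Among the members 2 overlap other annotated genes in the deposited table and 8 overlap none. Those over Abcb1a held at most 17 counts and those over Slc2a1 at most 23 counts in a library, against at least 1441 counts of Abcb1a and 5415 counts of Slc2a1.

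Ratios taken within a library do not depend on how libraries are scaled. The ratio of Flt1 to Kdr in FPKM was 1.22, 1.43, 1.28 and 1.33 in the PLX3397 libraries (F1, F2, M1, M2), against 0.983, 1.08, 0.776 and 0.871 in the vehicle libraries (F1, F2, M1, M2). It averaged 1.31 ± 0.0909 in PLX3397 libraries and 0.928 ± 0.133 in vehicle libraries, without overlap. The ratio of Slc2a1 to Mfsd2a averaged 2.41 ± 0.215 in PLX3397 libraries and 1.34 ± 0.223 in vehicle libraries, again without overlap. The ratio of Abcb1a to Cldn5 averaged 0.377 ± 0.0179 in PLX3397 libraries and 0.279 ± 0.0336 in vehicle libraries. By contrast the ratio of Pecam1 to Cldn5 averaged 0.171 ± 0.0233 in PLX3397 libraries and 0.165 ± 0.0160 in vehicle libraries, with ranges that overlapped. The ratios were chosen after the levels had been seen and carry no test, and each shows unequal change of its 2 genes only.

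**Figure D2:**
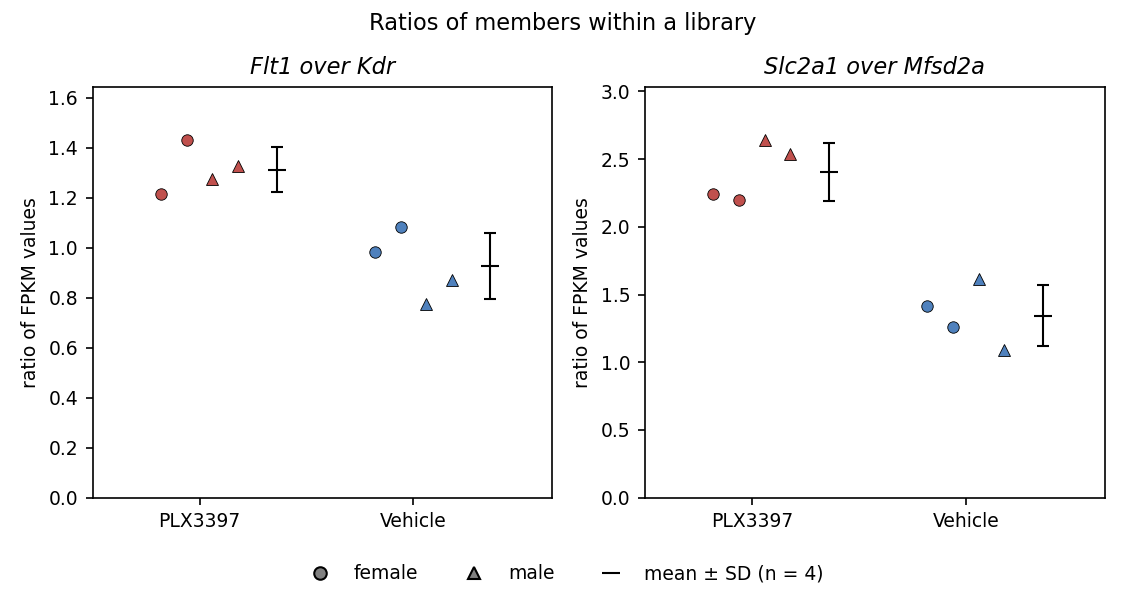
Ratio of the FPKM values of Flt1 over Kdr (left) and of Slc2a1 over Mfsd2a (right) in each library (y axes, from 0), with circles for females, triangles for males and bars for the mean ± SD (n = 4). In PLX3397 libraries the ratios run from 1.22 to 1.43 and from 2.20 to 2.64, against 0.776 to 1.08 and 1.09 to 1.61 in vehicle libraries.

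The members were next set out by sex, with 2 libraries per group and an error pooled over the 4 groups. By edgeR none of the 10 members was called in females, where 0.361% of tested genes were called, and none in males, where 1.54% were called. At an unadjusted p under 0.05 there were 3 members in females, beside 9.56% of tested genes, and 5 in males, beside 13.6%. By DESeq2 2 members were called in females (Flt1 and Slc2a1) and 4 in males (Cldn5, Kdr, Pecam1 and Mfsd2a), beside 2.51% and 4.94% of tested genes. The median log2 fold change of the members was 0.11 in females, with 7 positive, and -0.20 in males, with 8 negative. Scaled to the other endothelial identity genes, which moved the median of all tested genes to -0.12 in females and 0.18 in males, 5 members were positive and 5 negative in each sex.

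In males 3 vessel genes had lower values after PLX3397, without passing the threshold with edgeR. Cldn5 averaged 20.5 CPM in PLX3397 males and 32.2 CPM in vehicle males, a log2 fold change of -0.65 (SE 0.11; adjusted p = 0.0558). With limma-trend on log2 FPKM its adjusted p was 0.0482 with a pseudocount of 0.5 and 0.0474 with 1, and it was not called with 0.1. Scaled to the other endothelial identity genes, edgeR gave Cldn5 a log2 fold change of -0.46 in males (adjusted p = 0.169). With 1 library left out the log2 fold change ran from -0.74 to -0.55. Pecam1 averaged 15.3 CPM in PLX3397 males and 23.0 CPM in vehicle males (log2 fold change -0.59; SE 0.13; adjusted p = 0.1004). Kdr averaged 26.7 CPM in PLX3397 males and 36.8 CPM in vehicle males (log2 fold change -0.46; SE 0.09; adjusted p = 0.0829). For each of these 3 genes both PLX3397 males lay below both vehicle males, as they did for Tek and Mfsd2a. Groups did not overlap within males, in either direction, for 46.2% of tested genes. Mfsd2a averaged 27.5 CPM in PLX3397 males and 52.4 CPM in vehicle males, the widest gap of any member, at a log2 fold change of -0.93 (SE 0.21; adjusted p = 0.107). Without vehicle M1 it was -1.22 with an adjusted p of 0.0200, and without vehicle M2 it was -0.55 with an adjusted p of 0.149.

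In females the log2 fold changes of the same genes lay closer to 0, and the highest values belonged to Slc2a1, Abcb1a and Flt1. Cldn5 averaged 22.9 CPM in PLX3397 females and 21.5 CPM in vehicle females (log2 fold change 0.10, or -0.03 when scaled to the other endothelial identity genes; SE 0.11; adjusted p = 0.835). The log2 fold change in females was 0.13 for Pecam1, -0.06 for Kdr and -0.38 for Mfsd2a, with adjusted p from 0.616 to 0.874. Slc2a1 averaged 126 CPM in PLX3397 females and 98.1 CPM in vehicle females (log2 fold change 0.36; SE 0.08; adjusted p = 0.207). Abcb1a averaged 32.7 CPM in PLX3397 females and 25.6 CPM in vehicle females (log2 fold change 0.36; SE 0.11; adjusted p = 0.373). Both genes lay near their vehicle level in males, at log2 fold changes of 0.07 for Slc2a1 and -0.03 for Abcb1a. Flt1 was positive in both sexes, 0.29 in females (adjusted p = 0.207) and 0.20 in males (adjusted p = 0.253). Groups did not overlap within females for 5 members, beside 40.9% of tested genes, and within males for 6 members, beside 46.2%.

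**Figure D3:**
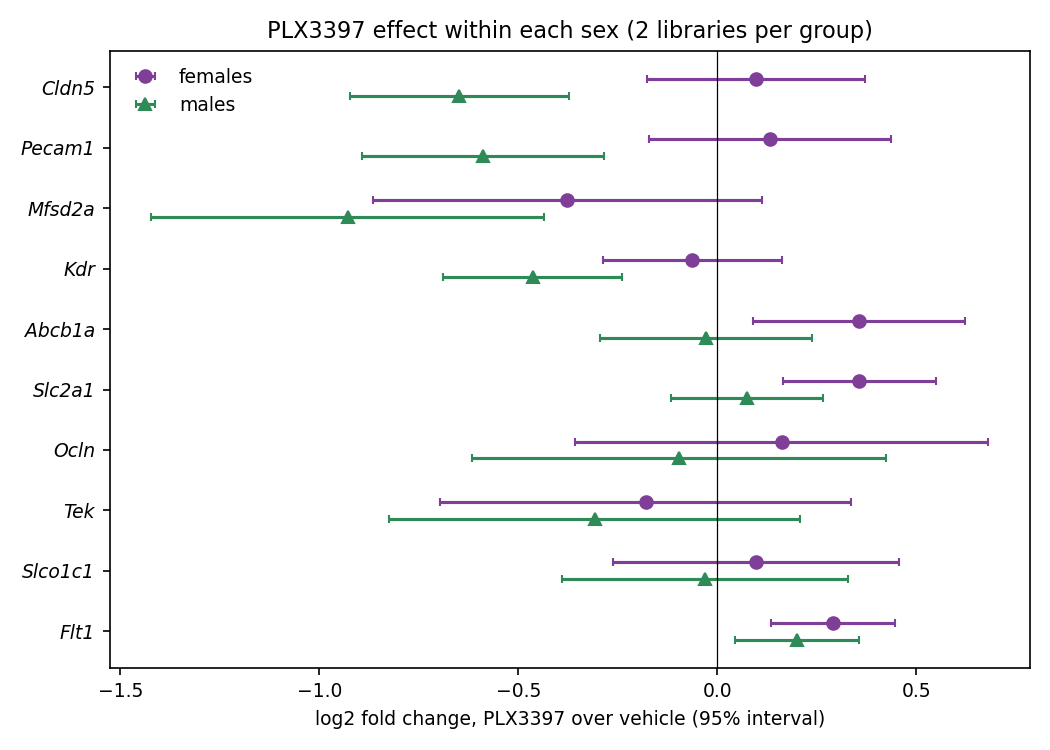
Log2 fold change of each member, PLX3397 over vehicle, within females (circles) and within males (triangles), with 95% intervals (x axis) from a model of 4 groups of 2 libraries. The female value lies to the right of the male value for all 10 members with TMM scaling, by 0.74 for Cldn5 and by 0.09 for Flt1, and for 5 of 10 when libraries are scaled to the other endothelial identity genes.

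The difference between the sexes was itself tested. The effect in females minus the effect in males was 0.74 for Cldn5 (SE 0.16; adjusted p = 0.492), 0.72 for Pecam1 (SE 0.18; adjusted p = 0.610) and 0.40 for Kdr (SE 0.13; adjusted p = 0.818). It was 0.55 for Mfsd2a (SE 0.29; adjusted p = 0.830) and 0.09 for Flt1 (SE 0.09; adjusted p = 0.914). No member passed the threshold, beside 0.077% of tested genes that did. At an unadjusted p under 0.05 there were 5 members, beside 6.01% of tested genes, and DESeq2 called Cldn5 alone, beside 0.846% of tested genes. The difference was positive for all 10 members, with a median of 0.33, and for 51.1% of all tested genes. Positive values were also held by 18 of 22 other endothelial identity, 12 of 12 pericyte, 12 of 12 oligodendrocyte and 10 of 11 astrocyte genes. Fewer were positive among VEGF and angiopoietin (8 of 16), venous (3 of 7) and transcytosis and fenestration genes (3 of 10). Scaled to the other endothelial identity genes, 5 of 10 members were positive. Those genes had a positive median themselves, 0.30, so that scaling cannot show whether a difference is shared across vessel genes. The members are transcribed largely in the same cells of the same libraries, so their signs are not independent. That scaling moved the median difference of all tested genes to -0.30, and the members' median to 0.02, with 0.43 for Cldn5 and 0.40 for Pecam1 against -0.22 for Flt1 and -0.18 for Slco1c1.

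Vehicle males also held the highest sums of red blood cell genes and of pericyte genes, while for endothelial identity genes vehicle M2 alone stood above the other libraries. The 4 red blood cell genes summed to 60.8, 27.4, 29.4 and 43.2 CPM in PLX3397 F1, F2, M1 and M2, against 31.8, 91.5, 196 and 200 CPM in vehicle F1, F2, M1 and M2. The 12 pericyte genes summed to 324, 303, 336 and 289 CPM in the PLX3397 libraries, against 285, 288, 352 and 369 CPM in the vehicle libraries. The 22 other endothelial identity genes summed to 319, 307, 307 and 276 CPM in the PLX3397 libraries, against 290, 285, 312 and 352 CPM in the vehicle libraries. Vehicle M2 was the highest library for all 3 lists, as for 4 of the 10 members. No gene of these lists was at 0 throughout a group. The part of the blood and pericyte signal in the values of Cldn5, Pecam1 and Kdr was not tested.

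**Figure D4:**
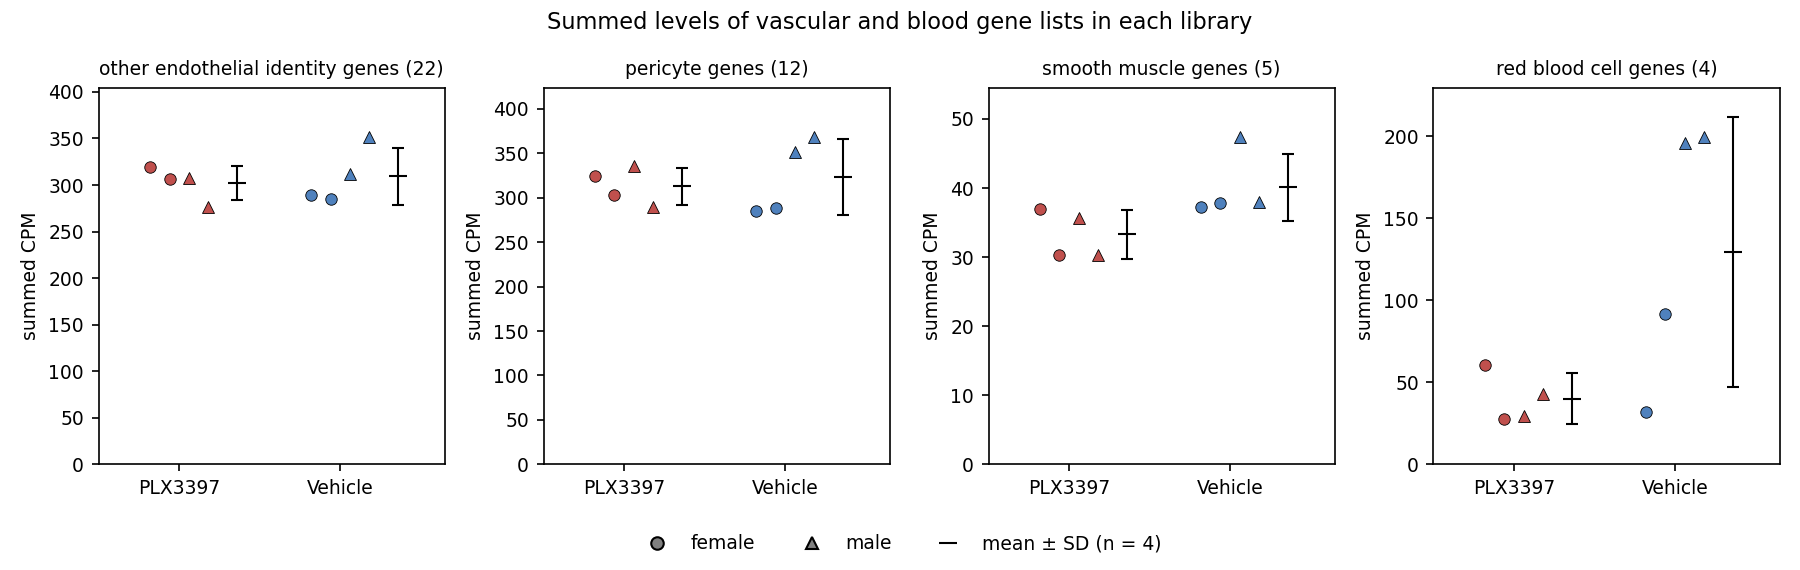
Summed CPM of 22 other endothelial identity genes, 12 pericyte genes, 5 smooth muscle genes and 4 red blood cell genes (y axes, from 0) in each library, with circles for females, triangles for males and bars for the mean ± SD (n = 4). The red blood cell sum reaches 196 and 200 CPM in the vehicle males and lies at 27.4 to 60.8 CPM in PLX3397 libraries.

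Between females and males, over both treatments, no member was called, beside 0.0592% of tested genes. The log2 fold changes, females over males, ran from -0.23 for Kdr to 0.16 for Ocln, with adjusted p from 0.933 to 0.977. At an unadjusted p under 0.05 there was 1 member, Kdr, beside 4.99% of tested genes, and DESeq2 called none of the members, beside 0.308% of tested genes.

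Other genes of the same cells and pathways were read from lists that hold none of the members. The counts below stand beside these shares of all tested genes: 2.14% called by edgeR, 6.51% called by DESeq2 and 16.2% with an unadjusted p under 0.05. Within males edgeR called 1.54%. Over both sexes 0 of the 22 other endothelial identity genes were called by edgeR, 5 had an unadjusted p under 0.05, and DESeq2 called 1 higher and 1 lower. The median log2 fold change was -0.10, with 8 positive. Cd34, a sialomucin of endothelium and of progenitor cells, averaged 13.4 ± 1.19 CPM in PLX3397 libraries and 19.8 ± 3.54 CPM in vehicle libraries (log2 fold change -0.55; adjusted p = 0.0662). Within males it was the 1 gene of the list that edgeR called, and fell by 0.77 on the log2 scale (adjusted p = 0.0436, and 0.0334 to 0.196 with 1 library left out). Vwf, the clotting protein von Willebrand factor, averaged 36.9 ± 3.23 CPM in PLX3397 libraries and 28.1 ± 3.62 CPM in vehicle libraries (log2 fold change 0.40; adjusted p = 0.111). Every PLX3397 library lay below every vehicle library for Cd34, and above for Vwf. Emcn, an endothelial mucin, had a log2 fold change of -0.34 and Clec14a, an endothelial lectin, one of 0.57, each with an adjusted p of 0.296.

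Among 13 tested junction genes, of 16 in the list, edgeR called 2 lower and 0 higher, with a median log2 fold change of -0.13. DESeq2 called 4 lower and 0 higher, and 5 had an unadjusted p under 0.05. Jam2, a junctional adhesion molecule, measured 51.5, 52.0, 52.0 and 49.5 CPM in PLX3397 F1, F2, M1 and M2, against 73.8, 64.1, 63.8 and 67.2 CPM in vehicle F1, F2, M1 and M2. It fell by 0.39 on the log2 scale (SE 0.06; adjusted p = 0.0166), with no overlap between the groups. Its relative Jam3 measured 31.2, 32.8, 31.0 and 27.3 CPM in the PLX3397 libraries, against 40.7, 41.1, 50.4 and 49.3 CPM in the vehicle libraries, again without overlap. It fell by 0.56 on the log2 scale (SE 0.10; adjusted p = 0.0313). Both genes are also transcribed outside the endothelium, in oligodendrocytes among other cells. The 12 oligodendrocyte genes summed to 2285 to 5190 CPM in PLX3397 libraries and 6662 to 10078 CPM in vehicle libraries. All 12 had negative log2 fold changes, with a median of -1.22, and edgeR called 5 of them lower and DESeq2 9. None of the 12 was at 0 throughout a group, and their part in the Jam2 and Jam3 values was not tested. Leaving out 1 library took the adjusted p of Jam3 to 0.05004 at the least and 0.109 at the most, and that of Jam2 to between 0.0291 and 0.0683. Without vehicle F1 and PLX3397 M2 it was 0.118 for Jam3 and 0.102 for Jam2, and scaled to the other endothelial identity genes it was 0.0247 for Jam3 and 0.225 for Jam2. F11r, another molecule of this kind, had a log2 fold change of -0.86 (adjusted p = 0.0855).

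Among 19 tested barrier transport genes, of 20 in the list, edgeR called 2 lower and 0 higher, with a median log2 fold change of 0.00. DESeq2 called 3 lower and 1 higher, and 6 had an unadjusted p under 0.05, beside the shares of all tested genes given above. Slco2b1, an organic anion carrier also transcribed by microglia, measured 10.7, 7.60, 8.87 and 7.88 CPM in PLX3397 F1, F2, M1 and M2, against 20.6, 20.2, 23.2 and 24.9 CPM in vehicle F1, F2, M1 and M2. It fell 2.53-fold (log2 fold change -1.34; SE 0.13; adjusted p = 0.00479) and passed the threshold with any one library left out, as well as without vehicle F1 and PLX3397 M2 (adjusted p = 0.0491). The microglial sums given above, which also lay lower in every PLX3397 library, are the values to set beside it, and their part was not tested. Slc6a6, the taurine carrier, averaged 186 ± 3.64 CPM in PLX3397 libraries and 217 ± 9.41 CPM in vehicle libraries and fell by 0.22 on the log2 scale (adjusted p = 0.0227). Its adjusted p was 0.0697 without vehicle F1 and PLX3397 M2 and 0.693 when libraries were scaled to the other endothelial identity genes. Slc40a1, the iron exporter ferroportin, had a log2 fold change of -0.67 (adjusted p = 0.1003), and Slco1a4, another organic anion carrier of brain endothelium, one of 0.28 (adjusted p = 0.131).

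Over both sexes no gene was called by edgeR or DESeq2 among 17 genes of Wnt signalling at the barrier, where 1 had an unadjusted p under 0.05 and the median log2 fold change was 0.02. Axin2, a standard target of Wnt signalling, averaged 37.7 ± 3.60 CPM in PLX3397 libraries and 31.1 ± 4.54 CPM in vehicle libraries (adjusted p = 0.316), and Nkd1, a feedback inhibitor of the same pathway, had a log2 fold change of -0.38 (adjusted p = 0.170). Within males edgeR called 1 gene of this list, Foxq1, a transcription factor named after its values had been seen, which fell by 1.12 on the log2 scale (adjusted p = 0.0492, and 0.0886 to 0.213 with 1 library left out). Among 16 other genes of VEGF and angiopoietin signalling edgeR called none and DESeq2 called 1 lower, 2 had an unadjusted p under 0.05, and the median was -0.04. Vegfa, the ligand of Flt1 and Kdr, averaged 74.9 ± 5.04 CPM in PLX3397 libraries and 80.9 ± 7.92 CPM in vehicle libraries (log2 fold change -0.11; adjusted p = 0.260). Aplnr, the apelin receptor of growing vessels, averaged 2.39 ± 0.969 CPM in PLX3397 libraries and 4.25 ± 0.405 CPM in vehicle libraries, without overlap (log2 fold change -0.91; adjusted p = 0.0855). Among 10 genes of transcytosis and fenestration edgeR called none, DESeq2 called 1 lower and 1 had an unadjusted p under 0.05. Vcam1, an adhesion molecule of activated and venous endothelium, had a log2 fold change of -0.18 (adjusted p = 0.119). Plvap, which builds the diaphragms of fenestrated vessels and was named after its values had been seen, averaged 13.8 ± 1.76 CPM in PLX3397 libraries and 16.2 ± 3.67 CPM in vehicle libraries (adjusted p = 0.538).

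Of the other vessel-wall lists, none of the 8 arterial, 7 venous, 12 pericyte, 5 smooth muscle or 11 basement membrane genes tested was called by edgeR. At an unadjusted p under 0.05 there were 2 arterial, 1 venous, 2 pericyte, 2 smooth muscle and 3 basement membrane genes, beside 16.2% of all tested genes. DESeq2 called 1 venous and 1 smooth muscle gene lower and 1 basement membrane gene higher, beside 6.51% of all tested genes. Vcam1 is in both the venous list and that of transcytosis and fenestration, so the counts of these 2 lists are not separate. Efnb2, the arterial ephrin, had a log2 fold change of 0.20 (adjusted p = 0.189) and Ephb4, its venous receptor, one of -0.20 (adjusted p = 0.399). Cspg4, the proteoglycan NG2 of pericytes and oligodendrocyte precursors, had a log2 fold change of -0.28 (adjusted p = 0.209), and Vtn, vitronectin, one of 0.24 (adjusted p = 0.261). All 5 smooth muscle genes had negative values, with a median of -0.43, and Tagln, an actin-binding protein of contractile cells, had the smallest p among them (log2 fold change -0.66; adjusted p = 0.0787). Lamb1, a laminin chain, averaged 34.1 ± 3.44 CPM in PLX3397 libraries and 24.9 ± 1.99 CPM in vehicle libraries (log2 fold change 0.46; adjusted p = 0.0600).

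Pathways fed by the carriers gave no call by edgeR either. Among 8 tested genes of thyroid hormone handling and response, which Slco1c1 serves, 0 had an unadjusted p under 0.05, DESeq2 called 0, the median log2 fold change was 0.07, and Dio2, the deiodinase that activates thyroxine, had a log2 fold change of 0.38 (adjusted p = 0.464). Among 6 other genes of glucose uptake 3 had an unadjusted p under 0.05, DESeq2 called 2 higher, and the median was 0.03. Slc2a3, the neuronal glucose carrier, averaged 218 ± 6.44 CPM in PLX3397 libraries and 198 ± 5.57 CPM in vehicle libraries (log2 fold change 0.14; adjusted p = 0.117). Of 11 astrocyte genes edgeR called none over both sexes, DESeq2 called 1 lower and 1 had an unadjusted p under 0.05, and their summed level was 3601 to 3871 CPM in PLX3397 libraries and 3445 to 4154 CPM in vehicle libraries. Aqp4, the water channel of astrocyte endfeet on vessels, averaged 118 ± 13.8 CPM in PLX3397 libraries and 155 ± 15.3 CPM in vehicle libraries (log2 fold change -0.39; adjusted p = 0.113). Within males edgeR called 1 astrocyte gene, Gfap, an intermediate filament protein named after its values had been seen, which fell by 0.53 on the log2 scale (adjusted p = 0.0462, and 0.0358 to 0.1996 with 1 library left out).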

How the data were processed

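RNA was sequenced from 8 hypothalami. Per the file headers, the authors deposited whole-number counts per gene and FPKM values. Tools named, without roles, in the submitters' processing notes are HISAT2, StringTie, limma, DESeq2 and bcl2fastq 2.0, with the build mm10. The sources used here do not say how reads were counted, on which annotation or whether by strand. FPKM was proportional to the count within 1% in 96.0% of 14186 genes with at least 100 counts in every library.

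Counts were tested with edgeR 4.0.16 (R 4.3.3; quasi-likelihood F-test, TMM scaling, two-sided, Benjamini-Hochberg adjustment over 16894 genes whose mean FPKM was 0.5 or more, threshold 0.05), with sex as a covariate. Effects within a sex, and their difference, came from a model of 4 groups. Standard errors are the absolute log2 fold change over the square root of F. CPM values use TMM-scaled library sizes. Alternatives used DESeq2 1.42.0, limma-trend (limma 3.58.1) on log2(FPKM + 0.5) and with pseudocounts of 0.1 and 1, other scalings and filters, no covariate, a replicate block and fewer libraries. The tests were checked on simulated counts. Promoters came from RefSeq (GRCm38.p6).

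The members and the 20 other lists, whose 233 symbols were all matched, were chosen with earlier results of these data known. Named are all members, Csf1r, up to 4 genes with the smallest p from each list described, and genes that overlap or copy a member. One gene that the rule picks is left out here. Intervals are at 95%. The counting error is 1 SD and covers counting only.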

Additional observations from a re-analysis of the deposited data

Results flagged for a closer look

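Among 124 groups of 4 libraries examined, 4 held a library whose gap to its nearest neighbour was, as a share of the group's range, above Dixon's critical value, which chance passes in about 1 in 20 groups. No member was among them. Esm1, an endothelial proteoglycan, stood at 9.03 CPM in vehicle F1, the highest of the vehicle libraries and the one that held pituitary transcripts. Aplnr, the apelin receptor, stood at 3.64 CPM in vehicle F2, the lowest of the vehicle libraries. Cav1, the coat protein of caveolae, stood at 4.33 CPM in PLX3397 F1, the lowest of the PLX3397 libraries. Col4a2, a collagen chain of basement membranes, stood at 199.6 CPM in vehicle M2, the highest of the vehicle libraries.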

How the results depend on the processing

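Flt1 was the 1 member called between the treatments, and 1 was also called with median-ratio scaling, a minimum of 1 FPKM, no covariate and bias-adjusted deviances. DESeq2 called 2 members (Flt1 and Mfsd2a). The count was 0 when libraries were scaled to the other endothelial identity genes, with no filter or edgeR's own filter, under limma-trend with each pseudocount, without vehicle F1 and PLX3397 M2, and with any single library left out (0 to 0). In males limma-trend called Cldn5 with pseudocounts of 0.5 and 1. The log2 fold change of Flt1 stayed between 0.18 and 0.28 in all of these, with adjusted p from 0.000211 to 0.428.

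The 362 genes called between the treatments became 1099 by DESeq2, 123 without vehicle F1 and PLX3397 M2, and 138 to 361 with 1 library left out. The 61 called in females became 142 under endothelial scaling, 424 by DESeq2, 96 by limma-trend with a pseudocount of 1, 98 with bias-adjusted deviances, 37 without those 2 libraries and 31 to 83 with 1 left out. The 260 called in males became 834, 48 and 87 to 243 by DESeq2, without those 2 libraries and with 1 left out. The 13 genes whose effect differed between the sexes became 143 by DESeq2 and 0 to 19 with 1 left out, and the 10 called between females and males became 52 and 8 to 14.

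Signs turned for values near 0. With 1 library left out, Slco1c1 ran from -0.0207 (without PLX3397 M1, and also below 0 without vehicle M1) to 0.121, and Ocln from -0.0921 (without vehicle F2, and also below 0 without PLX3397 F1) to 0.126. In females Kdr ran from -0.145 to 0.0105 (without PLX3397 F2), and Cldn5 was -0.0272 under endothelial scaling, which moved the median of all tested genes to -0.12. In males Abcb1a ran from -0.156 to 0.102 (without PLX3397 M2; 0.0404 without vehicle M2), and was 0.102 without vehicle F1 and PLX3397 M2 and 0.155 under endothelial scaling, where the median was 0.18. Under that scaling the difference between the sexes was -0.218 for Flt1 and -0.0323 for Slc2a1.

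Deviations of same-numbered libraries from their group means correlated at 0.06 in females and -0.00 in males. With 2 libraries per group each sex gives a single such value, which cannot decide whether the replicate numbers pair the libraries. With the number as a block 0 members and 79 genes were called between the treatments, 0 in females, 3 in males and 0 for the difference, and Flt1 had a log2 fold change of 0.25 with an adjusted p of 0.135. The cause of these shifts was not tested. With 2 libraries per sex and treatment the values within a sex rest on an error pooled over groups.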
